A study of Mus musculus with 3 samples.

Results

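The genes described here are 38 genes of the cell division cycle and of DNA replication, named one by one and matched by gene identifier to 55536 annotated genes in the tables of each library. All 38 were found in every library. They comprise the proliferation marker Mki67, 10 S phase genes, 17 mitosis genes, 3 regulators of the G1/S transition, 5 G1 cyclin and kinase genes and 2 genes of CDK inhibitors. The libraries hold RNA from the chromatin fraction of primary macrophages grown from C57BL/6J mouse bone marrow (bone marrow-derived macrophages), to which Lipid A, the membrane anchor of bacterial lipopolysaccharide, was given at 100 ng/ml for 40 min. There was 1 group of 3 biological replicates, which are separate biosamples that refer to the same donor entry, and sex and age were not collected. RNA input was 1 µg in replicate 1, 250 ng in replicate 2 and 500 ng in replicate 3. Untreated cells were not analysed here. No response to Lipid A could therefore be measured, and each level was compared with other genes of the same library. The p-values therefore test each level against the spread between these libraries, estimated with variance shared across genes. Part of that spread may be technical.

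A cell that divides copies its DNA in S phase and separates the copies in mitosis. Cyclins and their kinases (CDKs) drive these steps, E2F transcription factors switch on many S phase genes, and CDK inhibitors hold the cycle back. Macrophages grown from marrow divide in culture while they mature, and are known to slow or leave the cycle as they do so.

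Gene levels are given as TPM, a transcript abundance scaled for length and depth. The libraries summed to 12699813, 18280033 and 18087091 expected counts (replicates 1, 2 and 3), and for a gene with a count of 0 the upper limit, taken as 3 counts and covering counting error only, was 2.36e-05%, 1.64e-05% and 1.66e-05% of these totals. The reference gene of each library is the median of log2(TPM + 0.1) over 8765 nuclear protein-coding genes whose mean TPM was 1 or more, and it lay at a TPM of 7.56, 6.64 and 6.56 in replicates 1, 2 and 3. Of 10 macrophage markers 9 were called higher than the reference gene and 0 lower, led by the protease gene Ctsb at a TPM of 276 ± 53.9 (SD, n = 3). Of all 18427 genes tested, 15.1% were called higher and 52.5% lower. In 7 of 8 lists of markers of other cell types every marker was called lower. In the list of erythroid markers the exception was the enzyme gene Alas2, which was called neither higher nor lower at a TPM of 3.38 ± 0.545. The leading markers of the other lists were Meis1 of stem and progenitor cells at 1.76, Ccr9 of dendritic cells at 1.85, Col1a1 of fibroblasts at 0.370, S100a8 of neutrophils at 0.260, Lck of T cells at 0.120 and Cd79b of B cells at 0.0400 TPM, and all 4 NK cell markers were at 0. In the alignment-free table, a second deposited quantification of the same reads, the T cell marker Cd3d stood at 16.9 ± 2.63 TPM (SD, n = 3) and the dendritic cell marker Ccr9 at 4.04 ± 1.65, both called neither, against 0 and 1.85 in the alignment-based table. Of the macrophage markers 8 were called higher, 0 lower and 2 neither in the alignment-free table. Cd3d was singled out after its values were seen, and whether T cells or dendritic cells were present was not tested.

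Promoter sequences are shown for 4 of the genes because E2F factors, the CCAAT-binding factor NF-Y and the MuvB complexes that bind the CHR element are known to regulate cell cycle genes. Sequences were those of RefSeq on GRCm38.p6, 200 bases up to the base before the annotated start, 5′ to 3′ on the gene's strand. Capitals mark matches on either strand to the NF-Y motif, CCAAT. They also mark CHR, which was searched as TTTGAA and also in its less common form, written as TTCGAA. The third motif is E2F, for which TTTGGCGC, TTTCCCGC, TTTCGCGC and TTTGCCGC were searched. The window of Mki67 lies at chr7:135716380-135716579 on the minus strand, Top2a, a mitosis gene far lower on chromatin, at chr11:99024190-99024389 on the minus strand, Mcm6, an S phase gene, at chr1:128359706-128359905 on the minus strand, and Cdkn1a, the highest of all 38 genes, at chr17:29090779-29090978 on the plus strand.
Mki67: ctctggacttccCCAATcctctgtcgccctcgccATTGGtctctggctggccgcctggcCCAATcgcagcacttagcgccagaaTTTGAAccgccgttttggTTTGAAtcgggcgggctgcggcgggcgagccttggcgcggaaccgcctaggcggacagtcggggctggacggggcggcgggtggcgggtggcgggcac
Top2a: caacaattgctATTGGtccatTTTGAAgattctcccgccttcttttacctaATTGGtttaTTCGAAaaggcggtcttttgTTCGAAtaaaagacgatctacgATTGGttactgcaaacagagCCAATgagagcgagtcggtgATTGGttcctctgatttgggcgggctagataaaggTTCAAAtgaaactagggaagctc
Mcm6: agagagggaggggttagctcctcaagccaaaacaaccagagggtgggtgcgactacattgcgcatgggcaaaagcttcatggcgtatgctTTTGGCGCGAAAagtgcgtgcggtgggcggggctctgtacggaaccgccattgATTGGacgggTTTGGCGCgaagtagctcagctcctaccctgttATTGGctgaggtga
Cdkn1a: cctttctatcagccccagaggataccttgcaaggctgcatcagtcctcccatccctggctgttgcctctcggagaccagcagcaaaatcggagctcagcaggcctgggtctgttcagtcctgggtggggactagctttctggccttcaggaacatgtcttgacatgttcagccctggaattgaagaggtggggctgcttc

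The Mki67 window held 2 CHR and 3 CCAAT matches, and that of Top2a 4 CHR and 5 CCAAT matches. In the Mcm6 window there were 3 E2F matches, of which a pair overlap, and 2 CCAAT matches. None of these motifs was found in the Cdkn1a window. For Cdkn1a 2 windows were read in the search described next, and only 1 is shown here. In the 250 bases before the start, which could be read for 31 of the 38 genes, CCAAT was present in 8 of 9 S phase genes, 13 of 14 mitosis genes and 37.5% of all 27025 genes in the table. CHR was present in 2 of 9 S phase genes, 7 of 14 mitosis genes and 19.6% of all genes, and E2F in 3 of 9 S phase genes, 1 of 14 mitosis genes and 2.16% of all genes. These matches describe the sequence and are not measured binding sites. The windows of Mki67 and Top2a both held CHR and CCAAT matches. Whether these motifs go with the level of a gene was not tested.

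Most of the 38 genes were low on chromatin and 3 were high. Mki67, Cdkn1a and Cdk6 were called higher than the reference gene, by limma's treat test for a difference of more than 2-fold with a Benjamini-Hochberg adjusted p under 0.05, where 15.1% of all 18427 genes tested were called higher. Of the others 30 were called lower, against 52.5% of all genes tested, and 5 were neither (Pcna, Top2a, Cenpe, Cdk4 and Cdkn1b). Among 12317 protein-coding genes tested, 19.5% were higher and 44.6% lower. Only 20 of the 38 genes reached a mean TPM of 1, and 26 had under 100 expected counts in every library. In bulk RNA, fewer cells in the cycle and less RNA per cell cannot be told apart. Of the 38 genes 18 overlap another annotated gene, 17 of them on the opposite strand. The share of all annotated genes with such an overlap was not counted, so whether it is unusual cannot be said. Some of the overlapping genes had 0 counts in every library, such as Gm26394 inside Top2a.

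**Figure D1:**
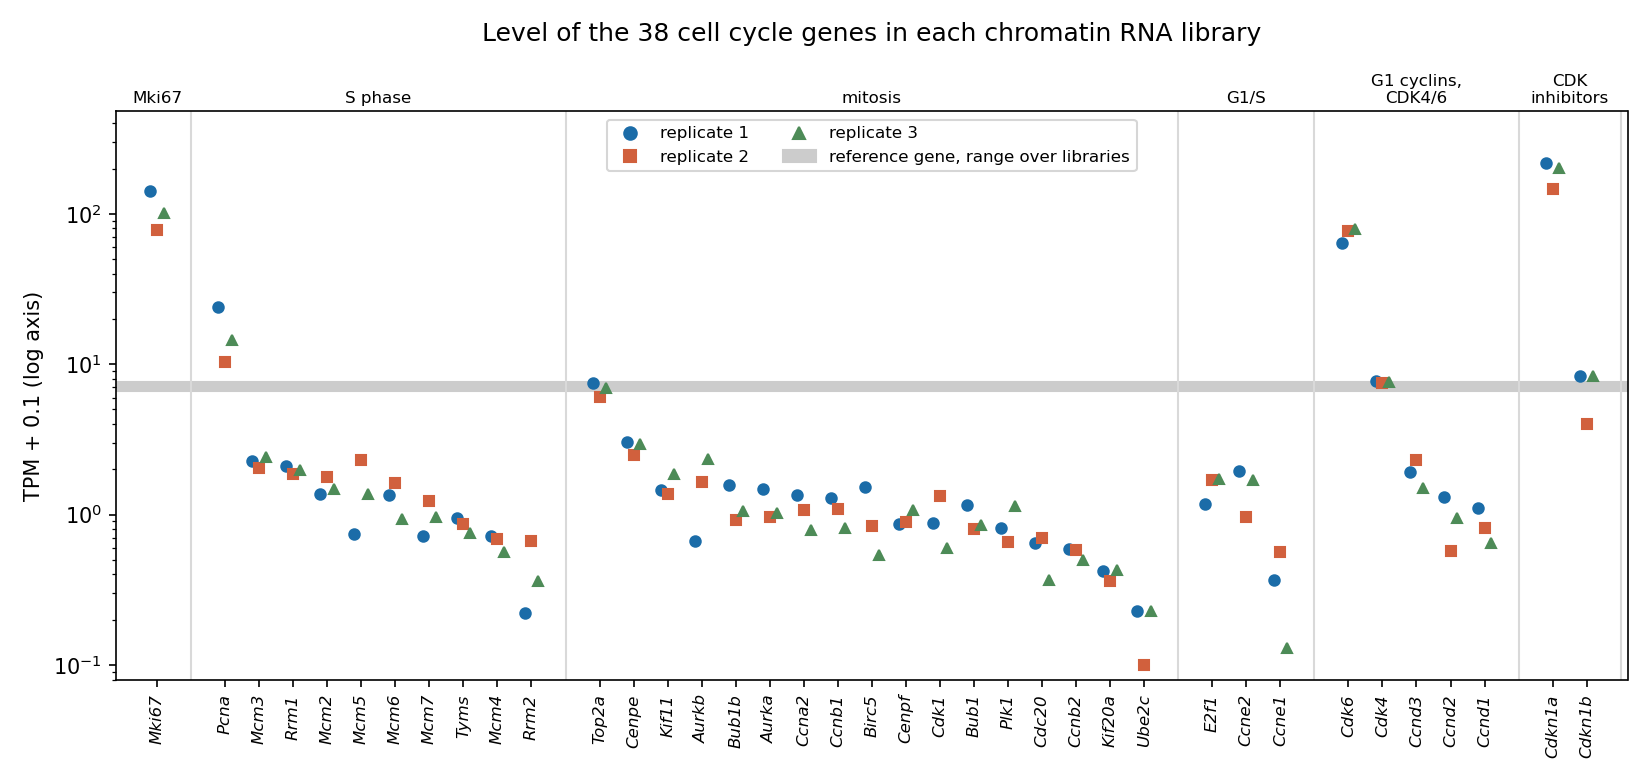
TPM + 0.1 on a log axis for each of the 38 genes in replicates 1, 2 and 3, grouped by role and ordered by mean level within each group. The grey band spans the reference gene, and Mki67, Cdk6 and Cdkn1a lie above it in all 3 libraries, while all S phase genes but Pcna lie below it.

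Mki67 encodes Ki-67, a large protein that coats mitotic chromosomes and is the usual marker of cycling cells. Its TPM was 142, 78.1 and 100.5 in replicates 1, 2 and 3, and its expected counts were 19307, 17485 and 20610. Every library placed it far above the reference gene, and replicate 2 was the lowest. The difference was 3.89 ± 0.16 (SE) log2 units, above in 3 of 3 libraries (limma treat, Benjamini-Hochberg adjusted p = 9.9e-05). By mean TPM it ranked 364 among 22028 protein-coding genes. The gene (ENSMUSG00000031004.8) spans chr7:135689784-135716361 on the minus strand of mm10.

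Nearly all of the Mki67 signal came from its long protein-coding isoform Mki67-201, of 10061 bases, which held 99.98% ± 0.0319 of the gene's expected counts (SD, n = 3). Its other annotated isoform, of 575 bases, had 0, 2 and 12 counts in replicates 1, 2 and 3. Gm45240, an annotated transcript that awaits experimental support (class TEC), lies inside the gene on the opposite strand, and its TPM was 26.5, 17.6 and 19.3 in replicates 1, 2 and 3. How strand was used in counting is not given in the sources used here, so reads of such pairs cannot be told apart.

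The S phase genes encode the replicative helicase (Mcm2 to Mcm7), the sliding clamp of the DNA polymerases (Pcna) and enzymes that make nucleotides for DNA (Rrm1, Rrm2 and Tyms). Of these 10 genes 9 were called lower than the reference gene, 0 higher, and Pcna was neither. Pcna stood apart at a TPM of 24.0, 10.2 and 14.5 in replicates 1, 2 and 3. All 3 values lay above the reference gene, by 1.13 ± 0.22 (SE) log2 units, which did not pass the limma treat test (Benjamini-Hochberg adjusted p = 0.376). Under the alternative tests of the level it was called higher in the alignment-free table, when a difference of any size was tested and when the reference genes began at a TPM of 0.1 (limma, Benjamini-Hochberg adjusted p = 0.0308, 0.00370 and 0.00289).

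The helicase subunits lay close together and far below Pcna. Mcm3 had the highest mean TPM of them, with 2.18, 1.94 and 2.32 in replicates 1, 2 and 3, a difference of -1.64 ± 0.17 (SE) log2 units to the reference gene (limma treat, Benjamini-Hochberg adjusted p = 0.0103, below in 3 of 3 libraries). Without replicate 1 this call was lost (-1.59, limma treat, Benjamini-Hochberg adjusted p = 0.0501). Mcm4 was the lowest of the 6 at 0.620, 0.590 and 0.460. Between them lay Mcm2 at 1.44 ± 0.212, Mcm6 at 1.20 ± 0.346 and Mcm7 at 0.873 ± 0.260 (SD, n = 3). Mcm5 differed most between libraries, with 0.640, 2.22 and 1.26 TPM on 15, 74 and 34 expected counts.

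Among the nucleotide enzymes, Rrm1, the large subunit of ribonucleotide reductase, had 2.01, 1.77 and 1.89 TPM in replicates 1, 2 and 3. Rrm2, the small subunit, whose supply limits the enzyme in S phase, had 0.120, 0.570 and 0.260 TPM on 1, 14 and 8 expected counts. Rrm2 was thus lower than Rrm1 in every library. Tyms, thymidylate synthase, had 0.85, 0.760 and 0.650 TPM.

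Most mitosis genes were low too. Of the 17 genes 15 were called lower than the reference gene, 0 higher, and Top2a and Cenpe were neither. Top2a, the topoisomerase that untangles sister DNA, led the list at 7.34, 5.94 and 6.89 TPM in replicates 1, 2 and 3. These values lay around the reference gene, above it in 1 of 3 libraries, with a difference of -0.04 ± 0.13 (SE) log2 units (limma treat, Benjamini-Hochberg adjusted p = 1.00). Cenpe, a kinesin motor of the kinetochore, had 2.96, 2.40 and 2.85 TPM, below the reference gene in 3 of 3 libraries by a difference that did not pass (-1.31 ± 0.16 (SE) log2 units, limma treat, Benjamini-Hochberg adjusted p = 0.0787).

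The cyclins and kinases of mitosis had few counts. Cdk1, the kinase that starts mitosis, had 0.780, 1.23 and 0.5 TPM in replicates 1, 2 and 3, with 11, 23 and 22 counts. Its cyclins were similar, with Ccna2 at 0.970 ± 0.275, Ccnb1 at 0.967 ± 0.236 and Ccnb2 at 0.457 ± 0.0493 TPM (SD, n = 3). Among the mitotic kinases, Aurka stood at 1.06 ± 0.288, Plk1 at 0.773 ± 0.244 and the spindle checkpoint kinases Bub1 and Bub1b at 0.833 ± 0.189 and 1.08 ± 0.350. Aurkb, the kinase of the chromosomal passenger complex, varied more, with 0.570, 1.54 and 2.25 TPM on 11, 21 and 33 counts. Its partner Birc5 (survivin) stood at 1.43, 0.740 and 0.440, so that the lowest Aurkb value and the highest Birc5 value came from replicate 1. In the alignment-free table Birc5 was again highest in replicate 1, but Aurkb was lowest in replicate 2, at 1.52, 1.46 and 3.58 TPM.

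Motors and kinetochore genes followed. Kif11, which pushes the spindle poles apart, had 1.46 ± 0.261 TPM, Kif20a, a motor of cytokinesis, 0.303 ± 0.0379, and Cenpf, a kinetochore protein, 0.843 ± 0.119 (SD, n = 3). Both genes of the anaphase-promoting complex pathway were near the floor in the alignment-based table. Cdc20, its activator, had 0.550, 0.600 and 0.270 TPM, and Ube2c, its ubiquitin-conjugating enzyme, had 0.130, 0 and 0.130 TPM on 2, 0 and 2 expected counts. Ube2c was the lowest of the 38 genes in mean TPM in that table. In the alignment-free table it had 8.94, 4.49 and 8.83 TPM in replicates 1, 2 and 3 and was called neither.

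S phase genes were then set against mitosis genes within each library, and both against Mki67. The median of log2(TPM + 0.1) was 0.17, 0.77 and 0.19 for the S phase genes and 0.20, -0.12 and -0.23 for the mitosis genes in replicates 1, 2 and 3. The S phase median was higher in 2 of 3 libraries and slightly lower in replicate 1. Its difference from the mitosis median was -0.03, 0.89 and 0.43, or 0.43 ± 0.46 (SD, n = 3), which is smaller than its spread between libraries. Single genes of the lists overlapped throughout, from 0.120 to 24.0 TPM for S phase and from 0 to 7.34 TPM for mitosis. In the alignment-free table the difference was -0.494, 0.413 and 0.038 in replicates 1, 2 and 3. Its mean there was -0.014, though it was again positive in 2 of 3 libraries. The mean was -0.070 when other replication genes were set against other mitosis genes. When list means replaced medians, the difference was 0.30, 0.81 and 0.51 in replicates 1, 2 and 3, positive in 3 of 3 libraries and larger than its spread (0.54 ± 0.26, SD, n = 3). A list mean, unlike a median, can be moved by a single gene such as Pcna, at 24.0, 10.2 and 14.5 TPM. List means without Pcna were not taken, so a higher level of the S phase genes as a list cannot be read from them. As the genes were chosen by name with earlier results known, the difference between the lists is given without a test.

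Mki67 stood far above both lists. It exceeded the S phase median by 6.97, 5.52 and 6.46 log2 units in replicates 1, 2 and 3, and the mitosis median by 6.95, 6.41 and 6.89, and it lay above each of the 27 genes in every library. The lowest Mki67 value, 78.1 TPM, was above the highest S phase value, 24.0 TPM for Pcna. In expected counts, Mki67 alone held 13.4, 7.98 and 9.56 times the sum of the 27 genes. That sum was made of 526, 825 and 702 counts for S phase and 915, 1365 and 1453 for mitosis. These counts are not scaled for length, and the exons of Mki67 are longer in total than those of most of the 27 genes. The multiples hold for the alignment-based table only, because some of the 27 genes had far more counts in the alignment-free table, as given below. Of the expected counts of all 38 genes Mki67 took 64.2% ± 3.61 (SD, n = 3). Mki67 together with Cdkn1a and Cdk6 made up 84.1% ± 0.732 of their summed TPM. Both shares are likewise given for the alignment-based table only, and the second also depends on how the isoforms of Cdk6 are weighed, as given below.

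**Figure D2:**
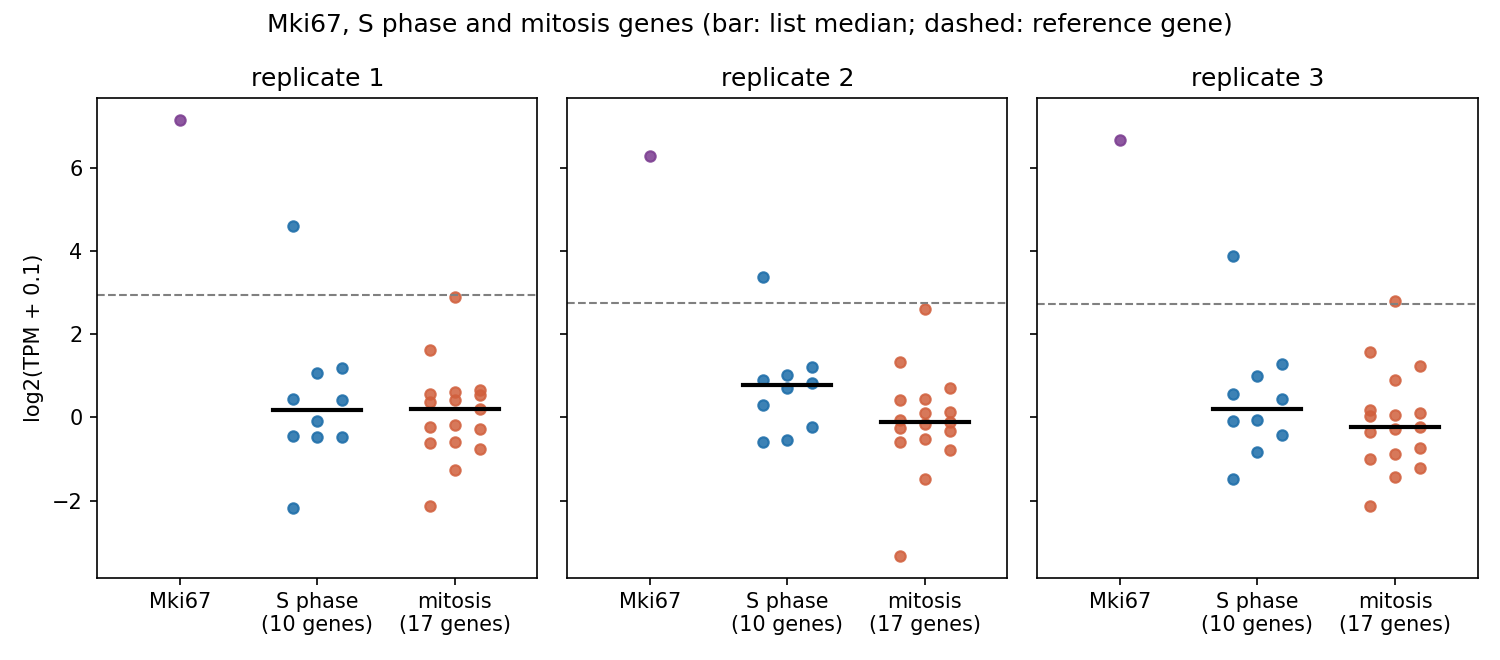
Level in log2(TPM + 0.1) of Mki67, the 10 S phase genes and the 17 mitosis genes in each library, 1 point per gene, with the list median as a bar and the reference gene as a dashed line. Mki67 lies above every other point, and the S phase and mitosis points overlap, with medians of 0.77 and -0.12 in replicate 2, where they are furthest apart.

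Gene by gene, 35 of the other 37 genes were called lower than Mki67 and 0 higher by limma treat with Benjamini-Hochberg adjustment, where 92.3% of all 18426 genes tested were lower, so a level below Mki67 was common to most genes. The ratio of Mki67 to Top2a in TPM was 19.3, 13.1 and 14.6 in replicates 1, 2 and 3, and that to Pcna 5.91, 7.64 and 6.94. To Mcm2 it was 112, 46.5 and 72.8, and to Cdk1 182, 63.5 and 201. In this alignment-based table the ratios were steadier for the better counted genes Top2a and Pcna. In the alignment-free table Cdk1 had 15.3, 6.46 and 8.19 TPM in replicates 1, 2 and 3 against 169, 70.8 and 103 for Mki67. The ratios to Cdk1 given here thus hold for the alignment-based table only. Cdkn1a and Cdk6 were not separated from Mki67. Cdkn1a stood 0.84 ± 0.18 (SE) log2 units above it in 3 of 3 libraries (limma treat, Benjamini-Hochberg adjusted p = 0.817). The difference of Cdk6 to it was -0.50 ± 0.25 (SE) log2 units (limma treat, Benjamini-Hochberg adjusted p = 0.979). When a difference of any size was tested, Cdkn1a was called higher than Mki67 (limma, Benjamini-Hochberg adjusted p = 0.00338).

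Cdkn1a, which encodes the CDK inhibitor p21, a target of p53, had 219, 146 and 201 TPM in replicates 1, 2 and 3, with 4084, 3999 and 5569 counts. It was the highest of the 38 genes in every library, and replicate 2 gave its lowest value. It exceeded the reference gene by 4.73 ± 0.15 (SE) log2 units (limma treat, Benjamini-Hochberg adjusted p = 4.4e-05, above in 3 of 3 libraries). Its isoforms Cdkn1a-201, of 1913 bases, and Cdkn1a-203, of 1172 bases, held 59.0% ± 7.60 and 38.7% ± 8.20 of its counts (SD, n = 3). On the opposite strand inside the gene, the TEC transcript AC167363.2 had 169, 235 and 248 TPM on 1953, 4283 and 4278 counts. Its TPM was above that of Cdkn1a in replicates 2 and 3, and its counts were above those of Cdkn1a in replicate 2, so how the reads divide between this pair is uncertain. The gene (ENSMUSG00000023067.14) spans chr17:29090976-29100727 on the plus strand of mm10.

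The other inhibitor, Cdkn1b (p27), had 8.29, 3.89 and 8.29 TPM on 481, 365 and 740 counts. It lay near the reference gene, at -0.10 ± 0.24 (SE) log2 units, and did not pass the limma treat test (Benjamini-Hochberg adjusted p = 1.00). Replicate 2 was again its lowest value, and without that replicate the difference was 0.23.

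Regulators of the G1/S transition were all called lower than the reference gene (3 of 3), while 0 of 3 were called lower in the alignment-free table. E2f1, the transcription factor of S phase genes, had 1.08, 1.61 and 1.63 TPM in replicates 1, 2 and 3. Ccne1 and Ccne2 encode cyclin E, the partner of CDK2. Ccne2 had 1.84, 0.860 and 1.60 TPM and Ccne1 0.270, 0.460 and 0.0300, the last on 1 count. In each library Ccne1 was the lower of the pair.

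The G1 kinases and D cyclins, which respond to growth factors, were unequal. Cdk6 had 64.3, 77.2 and 79.3 TPM on 2606, 3257 and 3996 counts, and exceeded the reference gene in 3 of 3 libraries, by 3.39 ± 0.15 (SE) log2 units (limma treat, Benjamini-Hochberg adjusted p = 0.00013). Cdk4, which shares its D cyclin partners, had 7.59, 7.42 and 7.57 TPM, and was neither higher nor lower at 0.12 ± 0.13 (SE) log2 units (limma treat, Benjamini-Hochberg adjusted p = 1.00). Cdk6 lay above Cdk4 in every library. The D cyclins were called lower (3 of 3), with Ccnd3 at 1.81, 2.20 and 1.40, Ccnd2 at 1.20, 0.470 and 0.85 and Ccnd1 at 1.01, 0.720 and 0.550 TPM.

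The level of Cdk6 depended on how its isoforms were weighed. Cdk6-202, of 11525 bases, held 73.6% ± 6.99 of the gene's counts and 15.7% ± 4.95 of its TPM (SD, n = 3). The short isoform Cdk6-203, of 697 bases, held 11.1% ± 2.52 of counts and 54.7% ± 1.68 of TPM. In a unit that divides the gene's counts by its merged exons (counts per kilobase, scaled to the library total), chosen after the data were seen, Cdk6 stood at 14.5 ± 1.56 against 121 ± 29.5 for Mki67 and 80.1 ± 16.1 for Cdkn1a. On that scale Cdk6 was called lower than Mki67 (-3.03 log2 units, limma treat, Benjamini-Hochberg adjusted p = 2.5e-06) and still higher than the reference gene, by 1.69 log2 units. Cdkn1a was then -0.58 log2 units from Mki67, which did not pass (limma treat, Benjamini-Hochberg adjusted p = 0.980). The order of these 3 genes thus depended on the unit, while all 3 stayed called higher than the reference gene in it.

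Annotated isoform types gave a readout other than the gene level. Among the 20 genes that reached a mean TPM of 1, the median share of TPM in protein-coding isoforms was 62.3%, 84.0% and 68.9% in replicates 1, 2 and 3. In 14 of them that have an isoform annotated as retained intron and a protein-coding one, the median retained-intron share was 44.3%, against 40.2% over 5823 protein-coding genes of the same kind. In the alignment-free table the order was the opposite, with 35.4% in 24 of the 38 genes against 41.9% over 7005 protein-coding genes. In the alignment-based table Cdk4 had the highest retained-intron share, at 74.6% ± 7.30 (SD, n = 3), and Cdk6 the lowest of the 14, at 7.72% ± 2.75. Pcna had 53.9% ± 7.71 there, with 36.5% ± 15.8 in protein-coding isoforms. In Top2a 53.4% ± 5.51 of TPM in that table lay in isoforms annotated as processed transcripts, while the full-length coding isoform Top2a-201 held 84.0% ± 2.75 of counts. In the alignment-free table Rrm1 was the highest of the 24, at 90.5% ± 0.986, and Ccne1 the lowest, at 3.17% ± 5.50. The tables hold annotated transcripts only, and unspliced RNA was not measured separately.

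**Figure D3:**
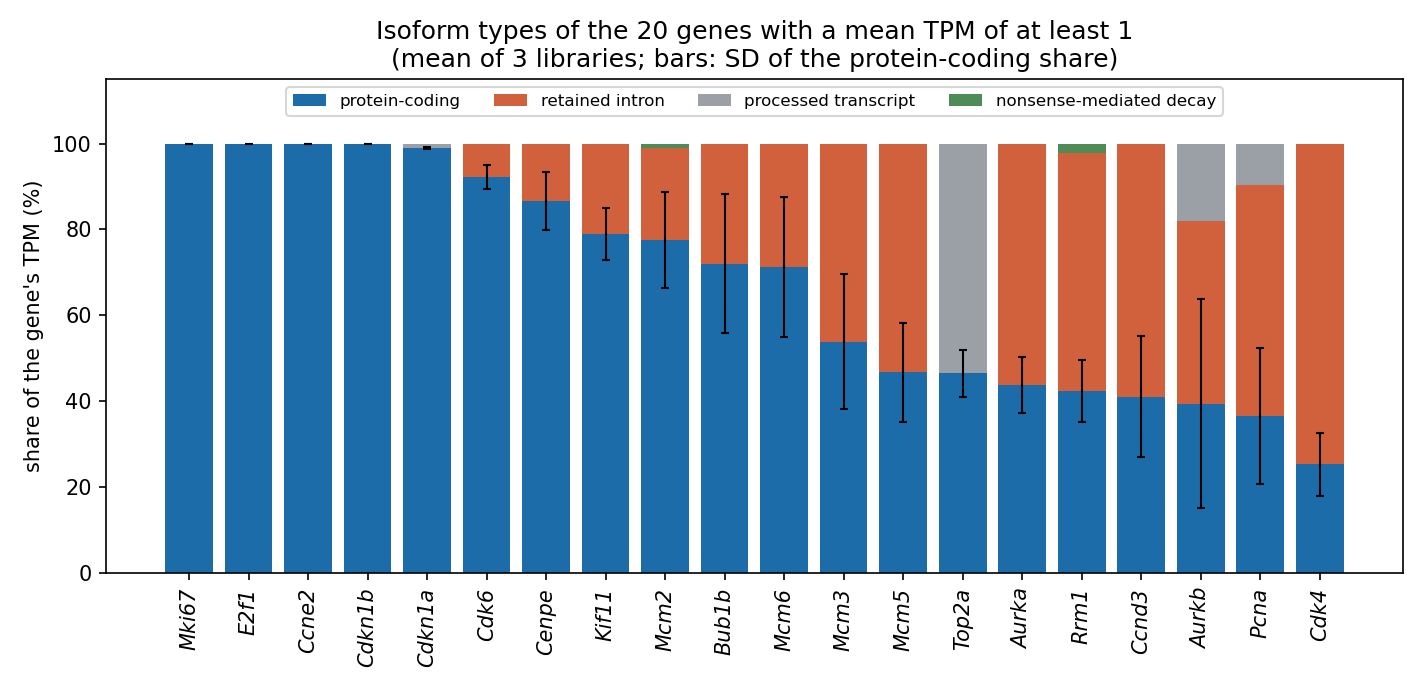
Share of each gene's TPM (%) by annotated isoform type in the alignment-based table. Shown are the 20 genes that reached a mean TPM of 1, as the mean of 3 libraries, with bars for the SD of the protein-coding share. Mki67, E2f1, Ccne2 and Cdkn1b lie at 100% protein-coding, and Cdk4 lies lowest at 25.4%.

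The same reads quantified without alignment (the alignment-free table) gave other levels for some genes. Of the 38 genes, 4 were called higher than the reference gene of that quantification (16.4% of 28512 genes tested) and 20 lower (48.2%), and 14 were neither. Pcna was the added gene called higher, and Mcm3, Rrm1, Tyms, Cdk1, Birc5, Ube2c, E2f1, Ccne1, Ccne2 and Ccnd2 were no longer called lower. The mean level was higher in the alignment-free table for 34 of 38 genes, with a median difference of 0.46 log2 units, against 0.52 over 18368 genes whose mean TPM was 0.1 or more. It was over 4 times higher for 7 genes, 18.4% of the 38, against 12.8% of these 18368 genes and 8.77% of the protein-coding genes among them. They were Ube2c, Cdk1, Ccne1, Tyms, Birc5, Ccnd2 and Rrm1.

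For 4 of these genes 1 isoform each differed as follows. Ube2c-202 had 114, 126 and 200 estimated counts in replicates 1, 2 and 3 in the alignment-free table, against 1, 0 and 2 expected counts in the alignment-based one. In the same order of tables, Tyms-201 had 442, 445 and 428 counts against 2, 0 and 0, and Birc5-202 had 492, 475 and 479 against 33, 35 and 24. For Cdk1, the 695-base isoform Cdk1-207 had 112, 104 and 103 counts in the alignment-free table and 0 in every library of the alignment-based one. In Rrm1 the difference was spread over 3 retained-intron isoforms, with mean TPM in the alignment-free and the alignment-based table of 5.22 and 0.360 for Rrm1-203, 2.11 and 0.140 for Rrm1-204 and 1.72 and 0.463 for Rrm1-207. The first 4 isoforms had more counts in each library of the alignment-free table, and why the tables differ was not tested. Mki67 differed little, at 169, 70.8 and 103 TPM in the alignment-free table, and remained above every S phase and mitosis gene there.

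**Figure D4:**
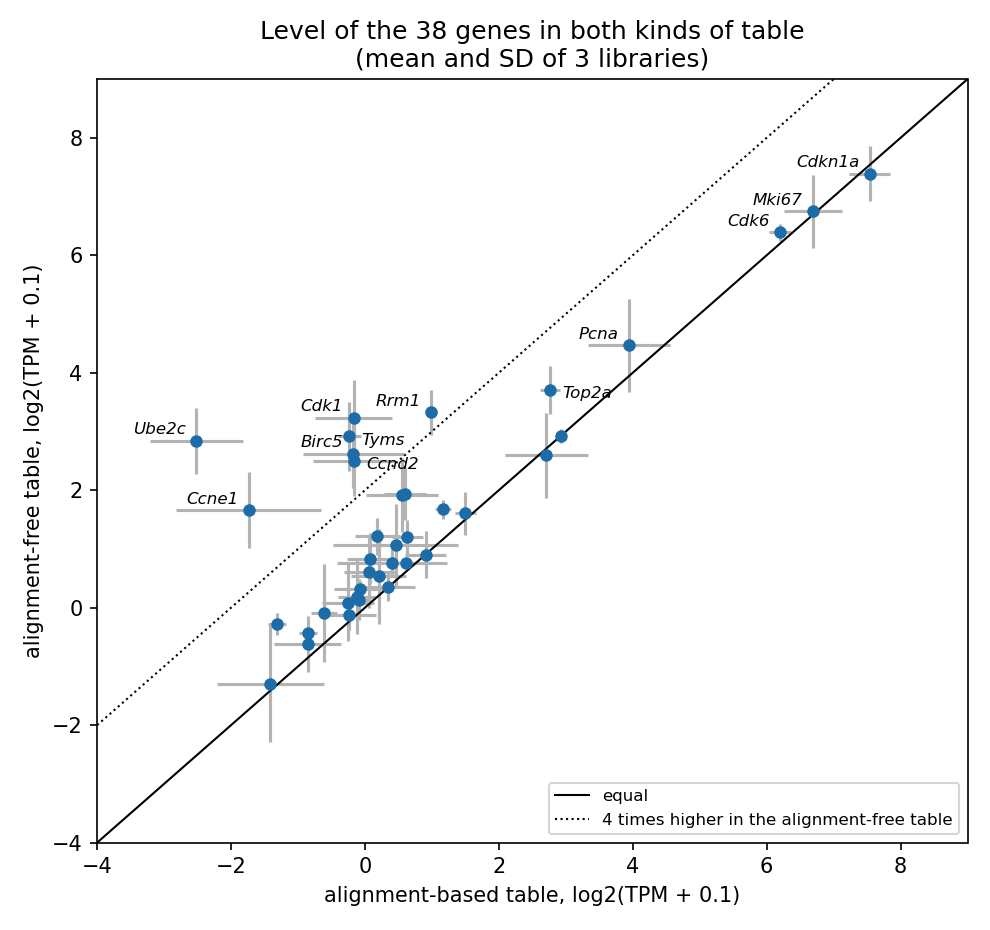
Level of the 38 genes in the alignment-based table (x axis) and the alignment-free table (y axis), in log2(TPM + 0.1), as the mean and SD of 3 libraries, with lines for equal levels and for 4 times higher. Mki67, Cdkn1a and Cdk6 lie near the line of equal levels, and Ube2c lies furthest above it, at a difference of 5.36 log2 units.

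Most other genes of the same pathways were not called higher. Where 15.1% of all genes tested were called higher and 52.5% lower, of 45 other replication genes 4 were called higher than the reference gene, 26 lower and 15 neither, and 7 were higher, 19 lower and 19 neither in the alignment-free table. The higher ones were Rfc2, a subunit of the clamp loader, at 29.3 ± 1.02 TPM (SD, n = 3), thymidine kinase gene Tk1 at 29.1 ± 8.87, the DNA polymerase delta subunit gene Pold3 at 24.9 ± 6.76 and the origin recognition subunit gene Orc3 at 22.6 ± 5.86. Of 46 other mitosis genes 2 were higher, 32 lower and 12 neither, and 3 were higher, 18 lower and 25 neither in the alignment-free table. The higher ones were Cenpa, the centromeric histone H3 variant, at 57.4, 30.4 and 47.0 TPM in replicates 1, 2 and 3, and the condensin subunit gene Smc4 at 26.8, 16.8 and 22.2. Incenp, the scaffold of the chromosomal passenger complex, came next at 17.4 ± 3.57 and was not called. Like Mki67, Cenpa and Smc4 were lowest in replicate 2.

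Of 33 other G1 and CDK regulators 2 were called higher, 15 lower and 16 neither, and 4 were higher, 12 lower and 17 neither in the alignment-free table. They were led by Mdm2, the ubiquitin ligase of p53 and itself a p53 target, at 603, 487 and 562 TPM, above Cdkn1a in every library. Rb1, the retinoblastoma protein that restrains E2F, was also higher, at 74.5, 45.4 and 55.0 TPM. Ccng2, an atypical cyclin, had 16.4 ± 5.93 and was not called. Mdm2 exceeded the reference gene by 6.29 ± 0.14 (SE) log2 units (limma treat, Benjamini-Hochberg adjusted p = 3.6e-05, above in 3 of 3 libraries).

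The spread between replicates was compared with that of all genes, without a test. The SD of log2 CPM (counts scaled to the library total) between libraries had a median of 0.266 over the 33 genes that passed a filter on low counts and 0.272 over all 12931 genes that passed. Of the 38 genes, Rrm2, Kif20a, Cdc20, Ube2c and Ccne1 did not pass. The lowest SD was 0.09 for Mcm4 and the highest 0.90 for Mcm5.

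Single genes still differed by library. Mcm5 deviated by -0.86, 0.94 and -0.09 log2 units from the mean of replicates 1, 2 and 3, Mcm6 by -0.48, 0.77 and -0.29 and Mcm2 by -0.54, 0.47 and 0.07. Of the 6 helicase genes 4 were highest in replicate 2, against 11 of the 33 genes that passed the filter. In replicate 1, 5 of the 6 were lowest, against 14 of the 33, and all genes were not counted this way. The helicase genes had few counts, such as 16, 38 and 22 for Mcm7 in replicates 1, 2 and 3. Mki67 went the other way to most helicase genes, at 0.26, -0.27 and 0.01, as did Pcna at 0.27, -0.25 and -0.02. Cdkn1a deviated by 0.10, -0.31 and 0.21 and Cdkn1b by 0.17, -0.61 and 0.45, both lowest in replicate 2. The summed fibroblast markers, 5 genes of which all were called lower, had 0, 171 and 159 counts in replicates 1, 2 and 3, and RNA input differed between all 3 libraries. The part of either in these deviations was not tested.

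**Figure D5:**
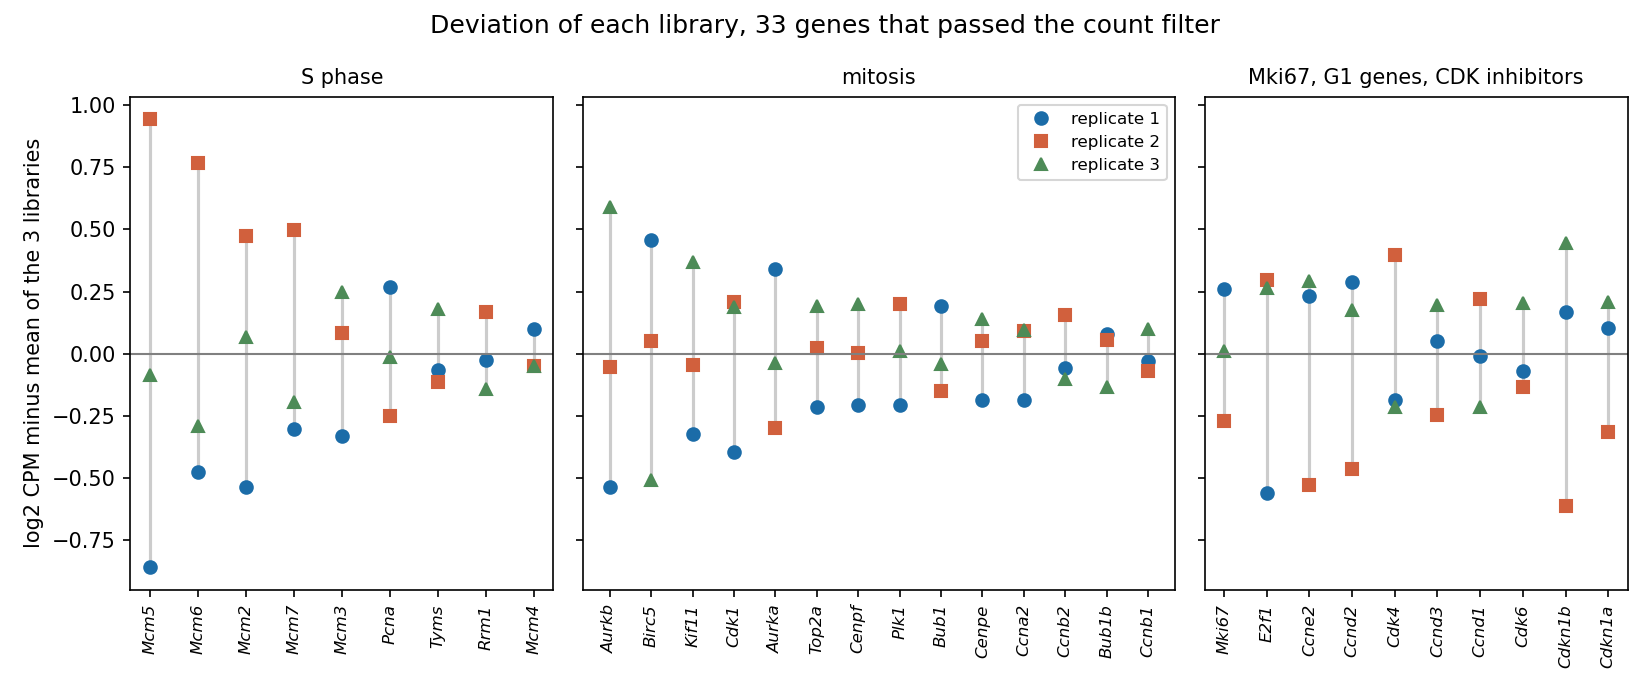
Deviation of log2 CPM in each library from the mean of the 3 libraries for the 33 genes that passed the count filter, ordered by SD within each list. Replicate 2 lies highest for Mcm2, Mcm5, Mcm6 and Mcm7, and lowest for Mki67 and both CDK inhibitor genes.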

How the data were processed

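Chromatin RNA of 3 libraries of 1 group was analysed. Per the file headers and deposited notes, values refer to assembly mm10 and annotation M21, which the annotation used here matches. The authors deposited expected counts and TPM from transcriptome alignments per gene and transcript, and estimated counts and TPM per transcript quantified directly from the reads (alignment-free). The sources used here give no program, version or strand handling. Expected counts divide shared reads between transcripts and were rounded for count-based steps. TPM divides by effective length, so short isoforms receive high values from few reads.

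Levels were log2(TPM + 0.1), which understates differences near 0, minus the library's reference level or Mki67. With limma 3.58.1 (R 4.3.3), treat with a trended prior and a band of 2-fold tested, two-sided, the 18427 genes that were on a list or whose mean TPM was 0.1 or more, and p-values were adjusted over all of them (Benjamini-Hochberg). Spread used edgeR 4.0.16 (TMM, filterByExpr with a minimum count of 10, prior count 2). The limma treat step was tested on simulated levels. Rows of tRNA, spike-ins and phiX, 0.200% to 1.26% of counts, were left out of tests. Genes and lists were chosen with earlier results of these data known. All 38 genes are named, with the 3 highest and all higher genes of each other pathway list and the highest marker of each cell type. Alternatives covered the pseudocount, filters, band, reference genes, table, scaling and each replicate left out.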

Additional observations from a re-analysis of the deposited data

How the results depend on the processing

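The counts over all 38 genes (higher, lower, and lower than Mki67) were within 1.5 times of those reported under all alternatives run except 1. When testing was limited to genes whose mean TPM was 1 or more, 12 genes were lower than the reference gene and 17 lower than Mki67, as fewer of the 38 genes were tested. Counts of single lists moved more in the alignment-free table: there 18 other mitosis genes were lower (32 in the alignment-based table), 7 other replication genes were higher (4), 4 other G1 and CDK regulators were higher (2) and 0 of the G1/S regulators were lower (3). The difference of S phase and mitosis medians had a mean over libraries of 0.43, and with list means, which a single high gene such as Pcna can move, 0.54. That mean was -0.014 in the alignment-free table, where 2 of 3 libraries were positive, and -0.070 for the other replication and mitosis genes. Leaving out 1 replicate gave 0.20 to 0.66. Single genes changed sign against the reference gene as follows. In the alignment-free table Rrm1 was at 0.47, Tyms at 0.058, Top2a at 0.85 and Cdk1 at 0.38. With reference genes from a TPM of 0.1 Top2a was at 1.02 and Cdkn1b at 0.97, and with those from a TPM of 5 Pcna was at -0.059 and Cdk4 at -1.07. With counts per kilobase of merged exons Cdk4 was at -0.70, Cdkn1b at 0.64 and, against Mki67, Cdkn1a at -0.58. Leaving out 1 replicate gave -0.10 to 0.014 for Top2a and -0.31 to 0.23 for Cdkn1b, both positive without replicate 2. Other than for Rrm1, Tyms and Cdk1, none of these genes had been called in the comparison concerned. The causes were not tested, except that the reference level itself moves with the genes that define it. With a band of 4-fold 10 genes lost their lower call (Mcm2, Mcm3, Mcm5, Mcm6, Rrm1, Aurkb, Kif11, E2f1, Ccne2 and Ccnd3), and the same 10 did with reference genes from a TPM of 0.1, which left 20 lower in each case. Beside Rrm1, Tyms and Cdk1, 7 genes lost their call without a change of sign in the alignment-free table. No paired analysis was possible because there is 1 group. Genes with few counts are measured with low precision, and the counts themselves depend on the table, as for Ube2c.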
